A study of Rattus rattus with 8 samples.

Results

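Replicate 4 of a hypoxia experiment on neonatal rat heart cell cultures comprised 2 of the 8 sequenced libraries, 1 from sorted 2n cells and 1 from sorted 4n cells. The pair was picked by the replicate number in the titles, because Il6 and Ccl2 had been seen to be high in it, and was set against the 6 libraries of replicates 1 to 3, within each sorted fraction. Since the gene counts of that same contrast chose the libraries, every difference between replicate 4 and the others is a description and carries no test. At the level of cultures the contrast was 1 against 3.

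The cultures were made from SD rats aged 1 to 3 days, for which the labels name no genetic alteration, and were enriched for cardiomyocytes, the beating muscle cells, by differential adherence. The cells were kept for 24 h with insulin-transferrin-selenium and 0.2 mM AraC, which blocks DNA synthesis, then starved of serum and held at 1% oxygen for 48 h. They were stained with a Hoechst DNA dye at 2 ug/mL and sorted by DNA content into diploid (2n) and tetraploid (4n) cells, 4 libraries of each. All 8 libraries were hypoxic, no library at normal oxygen is analysed here, and the labels describe the replicates as independent experiments.

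Inflammatory signalling in heart tissue commonly begins when tumor necrosis factor, interleukin 1 or a pattern receptor frees the NF-kappa-B transcription factors from their inhibitors. NF-kappa-B then raises the transcription of cytokines such as interleukin 6, of chemokines that attract leukocytes, of Ptgs2 for prostaglandin synthesis and of its own inhibitors Nfkbia and Tnfaip3. Fibroblasts, endothelial cells and cardiomyocytes can all make such transcripts, and leukocytes that live in the heart are another source.

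The libraries held 14783521 to 21033772 counts, with 19657990 in the 2n and 15326219 in the 4n library of replicate 4. Replicate 4 had the most genes with at least 1 count in each fraction, 16362 against 15580 to 15733 in 2n and 15845 against 15193 to 15478 in 4n. Transcripts of the mitochondrial chromosome took 24.1% of the counts of the replicate 4 4n library. That share was 25% and 25.9% in the 4n libraries of replicates 2 and 3, and 3.71% in that of replicate 1, which stood apart. Fibroblast genes were abundant in all libraries, which are labelled as cardiomyocytes. Col1a1, a collagen chain, stood at 4427 FPKM (fragments per kilobase of transcript, scaled to depth) in the 2n and 2598 FPKM in the 4n library of replicate 4, where the cardiomyocyte troponin Tnnt2 stood at 154 and 1164 FPKM. The measurements are of bulk RNA, in which fewer cells of a type and less RNA per cell cannot be told apart.

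Replicate 4 was called apart for a gene when, in both fractions, its library lay outside the range of the other 3 and at least 2-fold from their mean log2 CPM (counts scaled to TMM-adjusted library size). Of 12983 genes kept, 309 were apart on the higher side, which is 2.38% of the genes, and 18 on the lower side, which is 0.139%. Since the contrast chose the libraries, these shares are printed as the background for the lists below and nothing is read from them. Without the 4n library of replicate 1 the counts were 325 and 17. The genes apart on the higher side had median log2 differences of 1.52 in 2n and 1.76 in 4n, and 157 of them reached 5 CPM in both replicate 4 libraries. Across all genes kept, the replicate 4 differences in 2n and in 4n had a Pearson correlation of 0.648 and a Spearman correlation of 0.523, and 67.9% had the same sign. Genes are not independent replicates, and both fractions may come from the same culture. In all, 8 genes were at least 8-fold higher in both fractions.

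**Figure D1:**
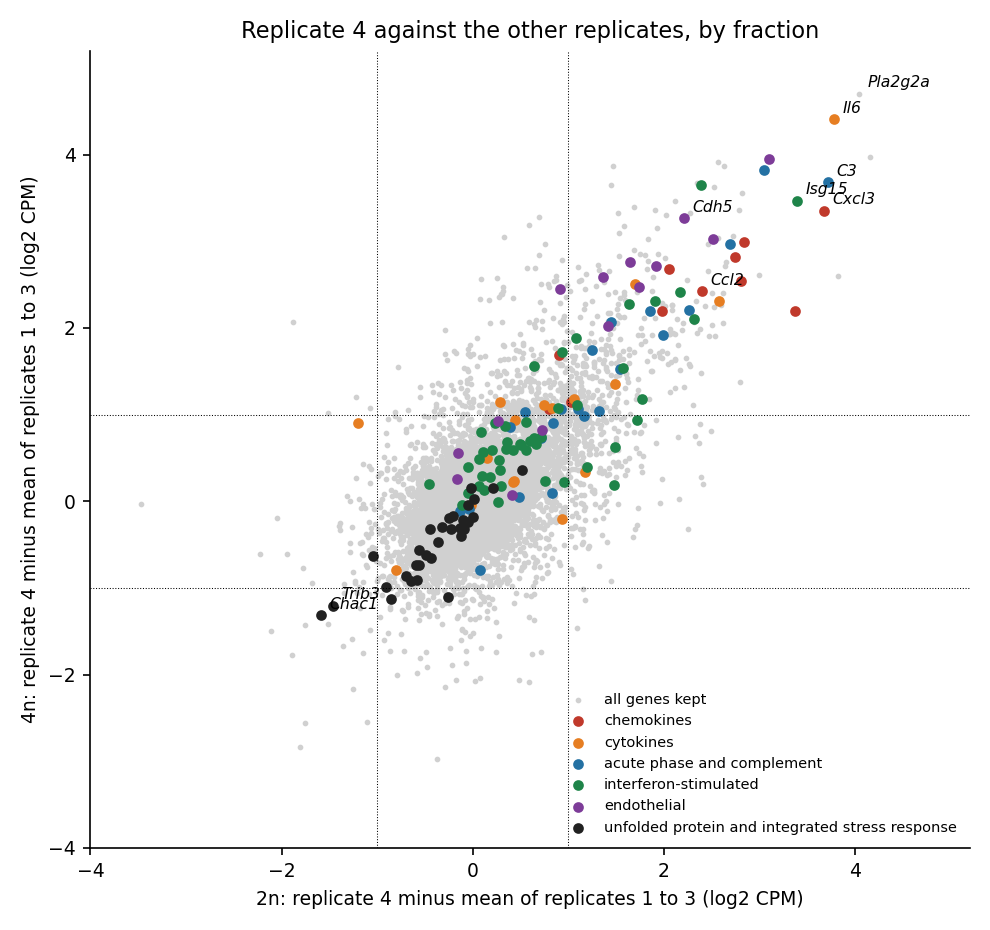
Log2 CPM difference of the replicate 4 library from the mean of replicates 1 to 3, in 2n on the horizontal and in 4n on the vertical axis, 1 point per gene kept (12983), with 6 gene lists in colour and dotted lines at a 2-fold difference. Chemokines, Il6 and C3 lie far into the upper right corner, and Trib3 and Chac1 in the lower left.

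Replicate 4 was not the culture that most often held the highest level. Over all genes kept, it was highest in both fractions for 10.4% of genes, against 15.5% for replicate 1, 10.9% for replicate 2 and 8.89% for replicate 3. Over the union of 5 inflammatory lists (chemokines, cytokines, NF-kappa-B factors and feedback, acute phase and complement, prostaglandin and nitric oxide), 105 of the 171 members found in the table passed the filter on low counts. Replicate 4 was highest in both fractions for 61 of these 105 genes, 58.1%, replicate 1 for 8, replicate 2 for 4 and replicate 3 for 1. Of the 105 genes, 38 were apart on the higher side and 0 on the lower side. The lists were written with earlier results of these data known, so these counts do not stand as independent evidence of a direction.

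Il6 encodes interleukin 6, a cytokine that drives the acute phase response. From here on, values are given in the order of replicates 1, 2 and 3, followed by replicate 4. Il6 (chromosome 4, 3043231 to 3047807, in the table's coordinates) stood at 1.83, 1.30 and 1.01 CPM against 19.9 CPM in 2n, and at 2.20, 1.04 and 0.64 CPM against 26.9 CPM in 4n. Both replicate 4 libraries were far above the range of the others, by 3.78 and 4.41 on the log2 scale, a 13.8-fold and a 21.3-fold difference. The other 3 libraries averaged 1.38 ± 0.42 CPM (SD, n = 3) in 2n and 1.30 ± 0.81 CPM (SD, n = 3) in 4n. Ccl2, the main attractant of monocytes (chromosome 10, 69412017 to 69413870), stood at 59.4, 190.4 and 162 CPM against 647 CPM in 2n, and at 59.1, 142 and 109.7 CPM against 522 CPM in 4n. Its log2 differences were 2.40 and 2.42. Among the other cultures, replicate 1 was lowest for Ccl2 and replicate 3 for Il6, in both fractions.

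Chemokines as a group were above the range of the other cultures in replicate 4. Of 34 chemokine genes listed and found, 11 passed the filter, all 11 lay above the other 3 libraries in both fractions, where 10.4% of all genes did, and 9 were apart by the 2-fold rule. The median log2 difference of the 11 was 2.41, beside -0.00045 for all genes kept. The list median was 1.32 without the filter, which genes high in replicate 4 pass more easily. The summed level of the list was 222, 523 and 464 CPM against 1486 CPM in 2n, and 233, 449 and 309 CPM against 1314 CPM in 4n. On the FPKM scale, which allows genes to be compared, the most abundant chemokine of the 2n library of replicate 4 was Ccl2 at 833 FPKM, followed by Cxcl1 at 445 FPKM and Ccl7 at 122 FPKM. In its 4n library the same 3 genes stood at 559, 317 and 112 FPKM.

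Ccl7, a monocyte attractant whose gene lies next to Ccl2 (chromosome 10, 69423086 to 69424979), stood at 7.99, 16.8 and 21.5 CPM against 96.1 CPM in 2n, and at 9.83, 22.2 and 15.7 CPM against 107 CPM in 4n. Cxcl1, which attracts neutrophils, stood at 16.6, 78.9 and 125 CPM against 383 CPM in 2n, and at 37.2, 60.4 and 80.1 CPM against 329 CPM in 4n. Replicate 1 was again lowest in both fractions for both genes. Cxcl2 and Cxcl3, neutrophil attractants from the same cluster on chromosome 14 as Cxcl1, were close to 0 in the other cultures. Cxcl3 stood at 0.30, 0.56 and 0.37 CPM against 6.48 CPM in 2n, and at 1.40, 0.97 and 0.36 CPM against 9.28 CPM in 4n. Cxcl2 stood at 0.24, 0.39 and 0.32 CPM against 4.31 CPM in 2n, and at 1.50, 0.74 and 0.86 CPM against 4.97 CPM in 4n. These levels rest on 4 to 28 counts of Cxcl2 per library of replicates 1 to 3 and on 91 and 68 counts in replicate 4. Cxcl1, Cxcl2, Cxcl3 and Cxcl6 are similar in sequence, and how reads were shared among such genes is not given in the sources used here, so the split among them is uncertain.

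Cxcl10, an interferon-responsive attractant of T cells, stood at 2.56, 1.26 and 2.07 CPM against 14.2 CPM in 2n, and at 2.47, 0.59 and 1.65 CPM against 11.7 CPM in 4n. Reg3b, a secreted lectin of epithelial defence that is on no list, was among the 10 named genes with the largest differences. It stood at 0.12, 1.00 and 0.37 CPM against 8.85 CPM in 2n, and at 2.04, 14.4 and 17.4 CPM against 129 CPM in 4n. Cxcl6 and Ccl20 were also apart, at 3.83 and 1.23 CPM in 2n and at 5.48 and 2.56 CPM in 4n of replicate 4. Cxcl12, which retains progenitor cells and leukocytes in tissue, was just inside the 2-fold rule. It stood at 83.3, 190.5 and 110.2 CPM against 246 CPM in 2n, and at 78.1, 176 and 55.5 CPM against 202 CPM in 4n, log2 differences of 1.03 and 1.14. Cxcl16 and Cx3cl1, which are made as membrane-bound chemokines, were above the others in both fractions but under 2-fold in 2n, with log2 differences of 0.91 and 0.80 there and of 1.69 and 1.06 in 4n. Chemokines typical of activated leukocytes stayed under the filter, such as Ccl5 with 4 and 8 counts and Ccl4 with 5 and 7 counts in the 2n and 4n libraries of replicate 4.

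**Figure D2:**
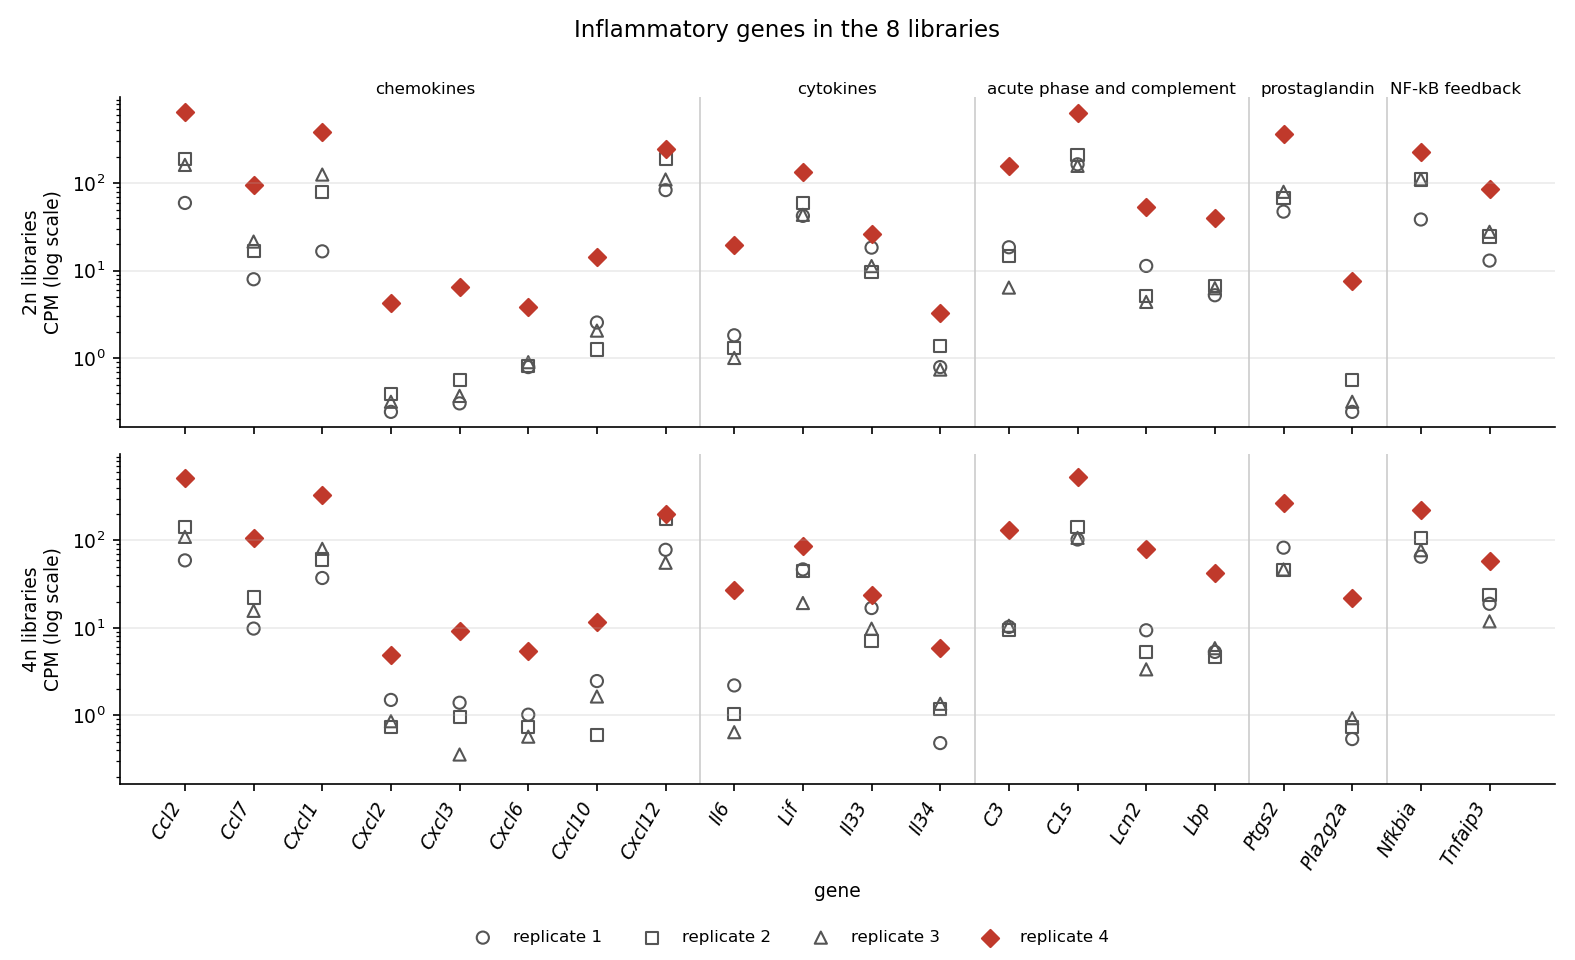
CPM on a log axis of 20 inflammatory genes in each of the 8 libraries, 2n above and 4n below, with replicate 4 as filled diamonds and replicates 1 to 3 as open symbols. The diamond is the topmost symbol for every gene shown, and it is closest to the others for Cxcl12 and Il33. Only genes apart on the higher side are shown, as were 38 of the 105 inflammatory genes kept, so the topmost place follows from the choice of genes.

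Cytokine genes were less uniform than chemokines. Of 37 listed, 17 passed the filter, 5 were apart on the higher side (Il6, Lif, Tnf, Il33 and Il34), 8 lay above the others in both fractions and 1, Il17d, lay below them, where 9.54% of all genes did. The median log2 difference over the 17 was 0.72. Lif, leukemia inhibitory factor, signals like Il6 through the gp130 receptor chain. It stood at 42.3, 58.9 and 43.5 CPM against 134 CPM in 2n, and at 46.6, 44.6 and 19.3 CPM against 87.4 CPM in 4n. Il33, an alarmin that binds the receptor encoded by Il1rl1, stood at 18.4, 9.68 and 11.3 CPM against 26.5 CPM in 2n, and at 16.9, 7.06 and 9.80 CPM against 24.0 CPM in 4n. Replicate 1 was the nearest to replicate 4 for Il33. Without replicate 3, Lif and Il33 were no longer apart and 3 cytokine genes were. Il34, a ligand of the receptor Csf1r, had log2 differences of 1.70 and 2.51 at 3.31 and 5.84 CPM in replicate 4.

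Tnf, the classical trigger of NF-kappa-B, was very low throughout, at 0.12, 0.30 and 0.42 CPM against 2.13 CPM in 2n, and at 0.64, 1.04 and 0 CPM against 2.19 CPM in 4n. The replicate 4 values correspond to 45 and 30 counts. Il1a and Il1b, the interleukin 1 genes, were at 0 to 10 counts in all 8 libraries and under the filter. Csf2, a growth factor for myeloid cells named here after its values were seen, had 26 and 21 counts in the replicate 4 libraries and 0 to 3 counts in each of the other 6. Csf1, the abundant macrophage growth factor, was not apart, at 305, 224 and 214 CPM against 327 CPM in 2n, and at 281, 193 and 119.9 CPM against 218 CPM in 4n. A few listed cytokines, among them Mif and Ifnb1, were listed at 0 in all 8 libraries.

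Receptors for these ligands differed less. Of 36 receptor genes kept, 1 was apart, the interleukin 18 receptor gene Il18r1, 10 lay above the others in both fractions and the median log2 difference was 0.28. Il18r1 stood at 1.22, 1.30 and 1.27 CPM against 5.73 CPM in 2n, and at 1.88, 1.11 and 0 CPM against 2.92 CPM in 4n. It was not apart without replicate 3, when 0 receptor genes were, and 4 receptor genes were apart without replicate 1. Among the abundant receptors, Il1rl1 stood at 857, 1100 and 784 CPM against 1909 CPM in 2n, and at 803, 904 and 350.1 CPM against 1203 CPM in 4n. Osmr, the oncostatin M receptor, had log2 differences of 0.85 and 0.80. Il6st, which encodes gp130, was at 275 CPM in 2n and at 187 CPM in 4n of replicate 4, with differences of -0.02 and -0.30. Tlr2, a receptor for bacterial lipoproteins, lay above the others in both fractions with differences of 0.82 and 0.98. Tlr4, the receptor for bacterial endotoxin, was at 18.3 CPM in 2n, inside the range of the others, and at 13.4 CPM in 4n, above it.

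Part of the list of NF-kappa-B factors and feedback genes was higher in replicate 4. Of 34 genes kept, 6 were apart on the higher side (Nfkbia, Nfkbiz, Tnfaip3, Birc3, Zc3h12a and Sod2) and 17 lay above the others in both fractions, with a median log2 difference of 0.37. Nfkbia, the inhibitor that holds NF-kappa-B in the cytoplasm, stood at 38.5, 110.2 and 110.7 CPM against 226 CPM in 2n, and at 65.1, 106 and 77.2 CPM against 222 CPM in 4n. Tnfaip3, a ubiquitin-editing inhibitor of the pathway, stood at 13.0, 24.6 and 27.8 CPM against 85.2 CPM in 2n, and at 18.9, 24.0 and 11.9 CPM against 57.9 CPM in 4n. Zc3h12a, an RNase that degrades Il6 messenger RNA, had log2 differences of 1.35 and 1.38, and Sod2, mitochondrial superoxide dismutase, of 1.59 and 1.31. Nfkb1 had differences of 0.07 and 0.12, and Rela of 0.20 and 0.22. Nfkb2 and Relb, subunits of the alternative branch, lay above the others in both fractions at differences of 0.59 and 0.66 for Nfkb2 and 0.60 and 0.64 for Relb.

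None of the 18 kept genes of the JAK-STAT3 and C/EBP list was apart, where 2.38% of all genes were on the higher side. In both fractions 5 lay above the others, where 10.4% of all genes did. The median log2 difference was 0.18, with -0.02 in 2n and 0.14 in 4n. This list holds factors that act downstream of interleukin 6. Socs3, the feedback inhibitor of gp130 signalling, stood at 16.6, 17.3 and 17.4 CPM against 23.7 CPM in 2n, and at 16.8, 16.2 and 16.2 CPM against 29.4 CPM in 4n. Replicates 1 to 3 lay close together for Socs3, so replicate 4 stood clear of them at a difference under 2-fold, 0.46 and 0.84 on the log2 scale. Stat3 had differences of 0.23 and 0.19 and overlapped with the others in 4n. Cebpb and Cebpd, factors of the acute phase response, were highest in replicate 1 in both fractions, Cebpd at 98.6 CPM in 2n and 81.2 CPM in 4n there, against 35.1 and 41.1 CPM in replicate 4.

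Acute phase and complement genes included several of the largest differences of replicate 4. Of 22 kept, 10 were apart on the higher side, 15 lay above the others in both fractions, and the median log2 difference was 1.08. C3, the central complement component, stood at 18.5, 14.6 and 6.41 CPM against 159 CPM in 2n, and at 10.3, 9.44 and 10.6 CPM against 131 CPM in 4n. Lcn2, a siderophore-binding protein of the acute phase, stood at 11.3, 5.16 and 4.40 CPM against 53.3 CPM in 2n, and at 9.40, 5.28 and 3.36 CPM against 79.5 CPM in 4n. Lbp, the endotoxin-binding protein, stood at 5.24, 6.64 and 6.31 CPM against 39.7 CPM in 2n, and at 5.32, 4.61 and 5.87 CPM against 41.9 CPM in 4n. For all 3 genes both replicate 4 libraries stood clear of the range of the others, and replicates 1 to 3 lay close together for Lbp.

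The complement protease gene C1s was the most abundant member apart, at 164, 212 and 158 CPM against 637 CPM in 2n, and at 102, 142 and 107 CPM against 529 CPM in 4n. C1r, its partner protease, lay above the others with log2 differences of 0.92 and 1.07. Serping1, the inhibitor of both proteases, had differences of 1.25 and 1.74. Steap4, a metalloreductase, and Cp, the copper carrier ceruloplasmin, had differences of 2.26 and 2.21, and of 1.10 and 1.06. C4a was apart at differences of 1.54 and 1.52 and its near copy C4b was not, at 0.84 and 0.90, and reads may have been split between them. C7, a component of the membrane attack complex, was inside the range of the others in both fractions, at 278 CPM in 2n and 143 CPM in 4n. The metallothionein genes Mt1 and Mt2A were apart too, with replicate 2 far below the rest: Mt1 stood at 4.21, 0.30 and 6.89 CPM against 9.13 CPM in 2n, and at 4.57, 0.82 and 9.37 CPM against 13.0 CPM in 4n. Without replicate 2 neither was apart, and the mean log2 differences were 0.86 for Mt1 and 1.10 for Mt2A.

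Genes of prostaglandin synthesis included the largest difference among the genes named here. Pla2g2a, a secreted phospholipase of inflammation (chromosome 5, 157282669 to 157285328), stood at 0.24, 0.56 and 0.32 CPM against 7.67 CPM in 2n, and at 0.54, 0.74 and 0.93 CPM against 21.7 CPM in 4n. Its log2 differences were 4.04 and 4.70, from 4 to 13 counts in each of the other 6 libraries and 162 and 297 counts in replicate 4. Ptgs2, the inducible cyclooxygenase, stood at 47.3, 67.6 and 79.7 CPM against 365 CPM in 2n, and at 82.6, 45.4 and 46.5 CPM against 266 CPM in 4n. The constitutive cyclooxygenase gene Ptgs1 was lower in level, at 10.1 and 14.3 CPM in replicate 4, and was apart with differences of 1.57 and 1.73. Of 21 genes kept in the prostaglandin and nitric oxide list, 8 were apart on the higher side, 10 lay above and 1, Pla2g4a, below the others in both fractions, and the median log2 difference was 1.06. Ptges and Ptgis, terminal synthases of prostaglandin E and of prostacyclin, were inside the range of the others in both fractions. Arg1, Gch1, Ass1 and Nos3, which act in arginine and nitric oxide metabolism, were apart at low levels in 2n, with Nos3 at 3.64 CPM in 2n and 39.4 CPM in 4n of replicate 4.

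Genes induced by interferon were higher in replicate 4 to a smaller extent. Of 48 kept, 10 were apart on the higher side, 30 lay above the others in both fractions, 0 lay below, and the median log2 difference was 0.58. Isg15, a ubiquitin-like modifier, stood at 0.30, 0.82 and 0.48 CPM against 6.34 CPM in 2n, and at 0.97, 0.37 and 0.21 CPM against 6.06 CPM in 4n. Gbp2, a guanylate-binding protein, stood at 8.41, 9.98 and 6.89 CPM against 26.1 CPM in 2n, and at 6.12, 6.39 and 2.43 CPM against 22.6 CPM in 4n. Ifit3, Rsad2, Gbp5 and Oasl, all of the antiviral response, were apart with the replicate 4 libraries between 2.41 and 11.6 CPM. Other members differed less: Irf1 had log2 differences of 0.56 and 0.91, and B2m of 0.10 and 0.57. The interferon gene Ifnb1 was listed at 0 in all libraries.

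Genes of the adhesion and leukocyte capture list were higher in replicate 4, and part of them are genes of endothelial cells. Cdh5, a junction gene, is also counted among the endothelial markers below. Of 12 kept, 5 were apart on the higher side (Selp, Sele, Cdh5, Icam2 and Vcam1) and 9 lay above the others in both fractions, with a median log2 difference of 1.02. Selp, P-selectin, stood at 0.85, 1.00 and 0.64 CPM against 13.1 CPM in 2n, and at 3.33, 2.90 and 1.36 CPM against 15.0 CPM in 4n. Vcam1, which binds leukocyte integrins, stood at 2.20, 6.47 and 3.87 CPM against 11.8 CPM in 2n, and at 1.93, 6.77 and 5.15 CPM against 11.5 CPM in 4n. Icam1, an NF-kappa-B target in many cell types, was just outside the 2-fold rule, at 127, 174 and 188 CPM against 299 CPM in 2n, and at 128, 159 and 110.3 CPM against 252 CPM in 4n. Its log2 differences were 0.90 and 0.95.

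Endothelial markers moved with replicate 4, more so in its 4n library. Of 14 kept, 7 were apart on the higher side (Cdh5, Kdr, Esam, Emcn, Cldn5, Ptprb and Robo4), 9 lay above the others in both fractions, and the median log2 difference was 1.39 in 2n and 2.46 in 4n. Cdh5, the cadherin of endothelial junctions, stood at 5.79, 1.95 and 2.76 CPM against 15.1 CPM in 2n, and at 15.0, 21.4 and 18.6 CPM against 176 CPM in 4n. Kdr, a VEGF receptor, stood at 2.13, 1.09 and 1.70 CPM against 5.54 CPM in 2n, and at 5.69, 13.2 and 28.3 CPM against 72.2 CPM in 4n. Eng and Tek, which are also endothelial markers, were not apart, with Eng at 329 CPM in 2n and 332 CPM in 4n of replicate 4 and log2 differences of -0.17 and 0.25. The summed level of the list, in which Eng is the largest term, ranged from 469 to 524 CPM in the other 2n libraries against 543 CPM, and from 395 to 489 CPM in the other 4n libraries against 969 CPM. Among the 38 inflammatory genes apart, the 4n level in replicate 4 minus the 2n level had a median of 0.01 on the log2 scale. It was within 1 for 35 of the 38, and ranged from -0.62 to 3.39. Averaged over replicates 1 to 3, the same genes had a median of -0.18. The endothelial list had a median of 2.63 in replicate 4. By edgeR's fit of 4n against 2n over all 8 libraries, replicate 4 included, its median was 2.02. That value differs in measure and in libraries from the -0.18 over replicates 1 to 3. The part of endothelial cells in the difference of the inflammatory lists was not tested, and these medians do not decide it.

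**Figure D3:**
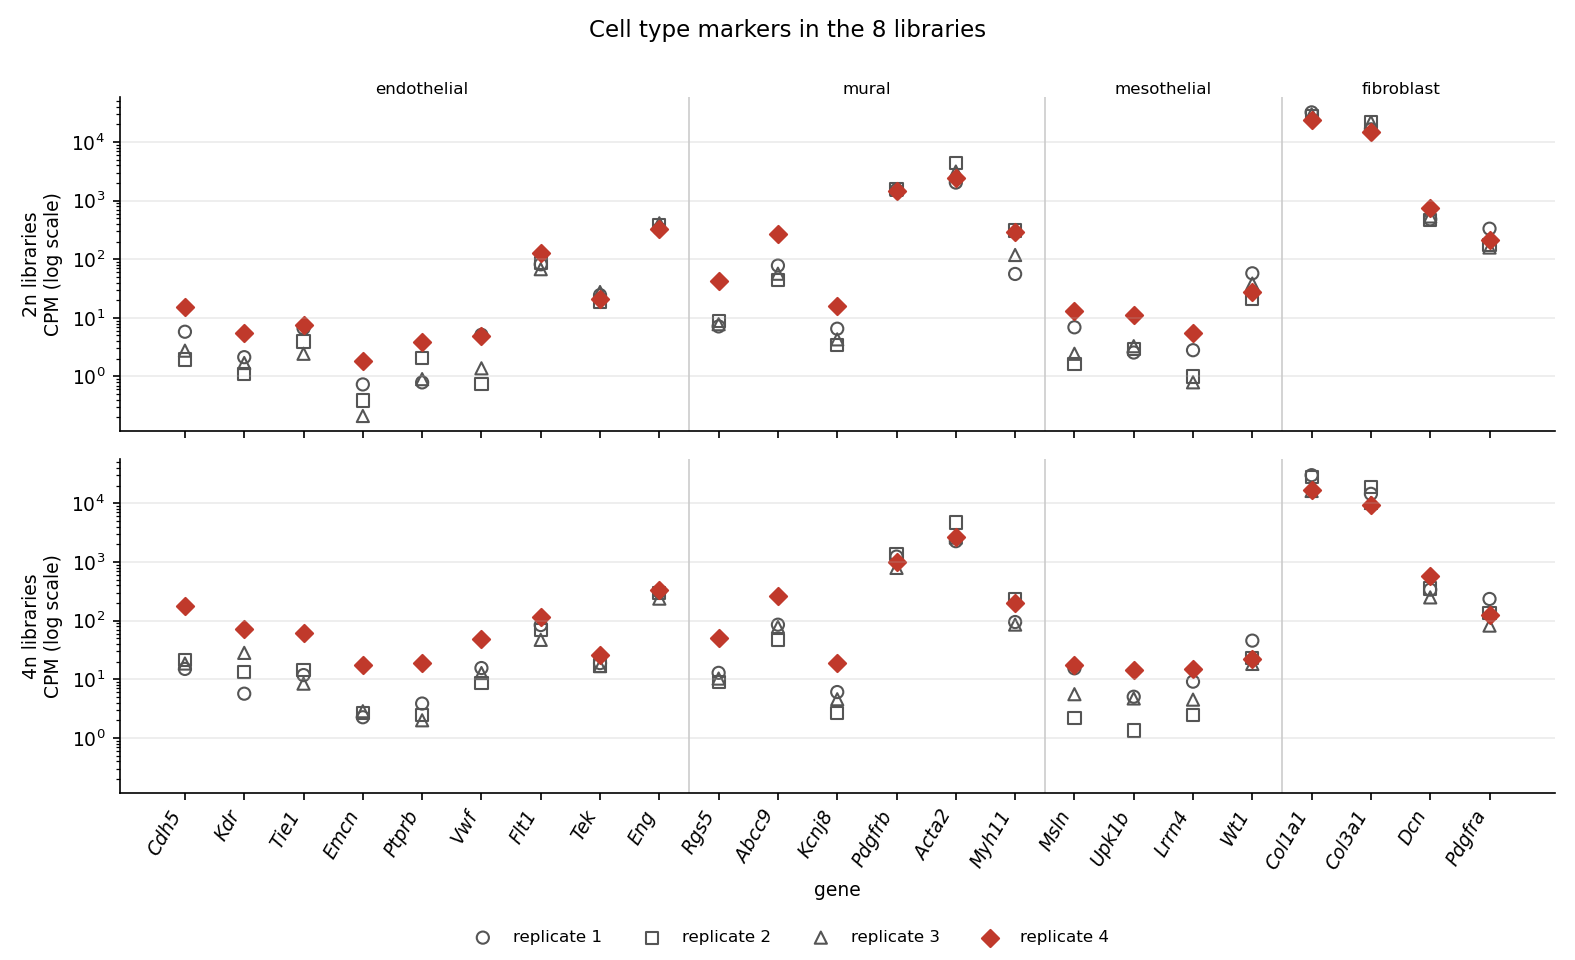
CPM on a log axis of 23 cell type markers in each library, 2n above and 4n below, with replicate 4 as filled diamonds. Endothelial genes such as Cdh5 and the pericyte genes Rgs5, Abcc9 and Kcnj8 stand above the other cultures, while Pdgfrb, Acta2 and Col1a1 do not.

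Leukocyte markers stayed low in replicate 4, although the macrophage and neutrophil sums were highest there in both fractions. Of 25 macrophage and monocyte markers found, 4 passed the filter and 3 were at 0 in all libraries. The summed level of the list was 8.22 to 11.7 CPM in the other 2n libraries against 13.4 CPM, and 9.23 to 26.5 CPM in the other 4n libraries against 40.2 CPM. The leading part of that last value was Lcp1, an actin-bundling protein of hematopoietic cells, at 21.2 CPM and the only member apart. Ptprc, the pan-leukocyte phosphatase CD45, had 1 count in the 2n and 13 counts in the 4n library of replicate 4, against 0 in every other 2n library and 16, 15 and 0 counts in the other 4n libraries. Csf1r, the macrophage growth factor receptor, had 4 and 9 counts in replicate 4, and 26, 18 and 0 counts in the 4n libraries of replicates 1 to 3. Mrc1, the macrophage mannose receptor, was below the others, at 0.71 CPM in 2n and 0.95 CPM in 4n. Of 16 neutrophil markers 11 were at 0 in all libraries, and the sum of the list was 4.26 CPM in 2n against 2.65 to 4.21 CPM, and 11.4 CPM in 4n against 2.50 to 5.64 CPM. The leading part of the 11.4 CPM was the protease gene Mmp9 at 9.86 CPM. Mmp9 was not apart, with log2 differences of 0.18 in 2n and 2.06 in 4n. Of 17 lymphocyte markers found 0 passed the filter and 9 were at 0 in all libraries. The sum of that list was 0.62 CPM in the 2n library of replicate 4 against 0.64 to 1.22 CPM. In its 4n library it was 3.00 CPM against 0.81 to 0.86 CPM.

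Other stromal lists moved in part. Of 13 smooth muscle and pericyte markers kept, 3 were apart: Rgs5, Kcnj8 and Abcc9, of which the last pair encodes the subunits of a vascular potassium channel. Rgs5, a regulator of G-protein signalling in pericytes, stood at 7.13, 8.85 and 7.79 CPM against 43.2 CPM in 2n, and at 12.9, 9.07 and 10.3 CPM against 51.4 CPM in 4n. Abcc9 stood at 77.8, 44.1 and 56.5 CPM against 264 CPM in 2n, and at 85.4, 46.7 and 78.3 CPM against 268 CPM in 4n. No other gene of the list lay outside the range of the other cultures, in the same direction, in both fractions. Pdgfrb had log2 differences of -0.07 and -0.12, and the median over the 13 was 0.07. Of 10 epicardial and mesothelial markers kept, 4 were apart (Upk1b, Msln, Lrrn4 and Krt19), 6 lay above the others in both fractions and 1 below. The median log2 difference was 1.24, with 1.57 in 2n and 0.76 in 4n, while Wt1 had differences of -0.37 and -0.26. The sum of that list was 163 CPM in 2n and 169.8 CPM in 4n of replicate 4, against 125 to 163 CPM and 118 to 169 CPM in the others.

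Fibroblast and cardiomyocyte lists had few members apart in replicate 4, while their 2n sums lay outside the range of the other 2n libraries. None of 13 fibroblast markers kept was apart, where 2.38% of all genes were on the higher side. In both fractions 5 lay above the others, where 10.4% of all genes did, and 3 below, where 9.54% did. The median log2 difference was 0.02. Dcn, a matrix proteoglycan, was above at 736 CPM in 2n and 574 CPM in 4n, and Col3a1 and Postn were below. The summed fibroblast level was 49240 CPM in 2n, below a range of 58780 to 63000 CPM, and 33950 CPM in 4n, inside a range of 32750 to 55480 CPM. Cardiomyocyte markers summed to 1223 CPM in 2n against 588 to 1173 CPM, and to 16200 CPM in 4n, inside a range of 5172 to 40030 CPM. Of 16 kept, only Myl7, an atrial myosin light chain, was apart, at 1.23 and 26.1 CPM. The median log2 difference of the 16 was 0.49, with 0.78 in 2n and 0.36 in 4n. In both fractions 11 of them had a positive and 0 a negative difference.

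Targets of p53 were partly higher in replicate 4. This list holds genes that the tumor suppressor p53 turns on after DNA damage, and genes of senescence. Of 22 kept, 4 were apart (Mdm2, Cdkn1a, Btg2 and Igfbp5), 11 lay above the others in both fractions, and the median log2 difference was 0.41. Mdm2, the ubiquitin ligase that limits p53, stood at 81.2, 75.3 and 78.7 CPM against 186 CPM in 2n, and at 90.3, 69.7 and 85.5 CPM against 187 CPM in 4n. Cdkn1a, the cell cycle inhibitor p21, stood at 72.3, 65.5 and 71.1 CPM against 157 CPM in 2n, and at 87.2, 56.5 and 121 CPM against 234 CPM in 4n. Replicates 1 to 3 lay close together for Mdm2, and replicate 4 stood clear of them in both fractions. Eda2r and Zmat3, further p53 targets, lay above the others in both fractions without reaching 2-fold in both. Genes of DNA replication and mitosis were not apart in any of 36 cases, with a median of -0.27 in 2n and 0.11 in 4n.

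Part of the unfolded protein and integrated stress response list was lower in replicate 4. The integrated stress response slows translation and, through the factor Atf4, raises genes of amino acid synthesis and uptake. Of 31 genes kept, 2 were apart on the lower side, 15 lay below the others in both fractions, where 9.54% of all genes did, and 1 lay above. Trib3, a pseudokinase induced by Atf4, stood at 141, 88.5 and 107 CPM against 40.0 CPM in 2n, and at 132, 87.8 and 51.4 CPM against 36.4 CPM in 4n. Chac1, which degrades glutathione, stood at 71.3, 43.6 and 29.4 CPM against 15.0 CPM in 2n, and at 51.5, 34.3 and 18.0 CPM against 12.6 CPM in 4n. Replicate 1 was highest for both genes in both fractions, and without it, or without its 4n library alone, 0 members were apart. The members below the others without reaching 2-fold in both fractions included Atf4 itself, with log2 differences of -0.44 and -0.32, the asparagine synthetase gene Asns with -0.69 and -0.86, and the amino acid transporter gene Slc7a5 with -0.85 and -1.13. The 4n library of replicate 3 was the next lowest for many of these genes, with Atf4 at 426 CPM beside 421 CPM in replicate 4. The median of the list was -0.38.

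**Figure D4:**
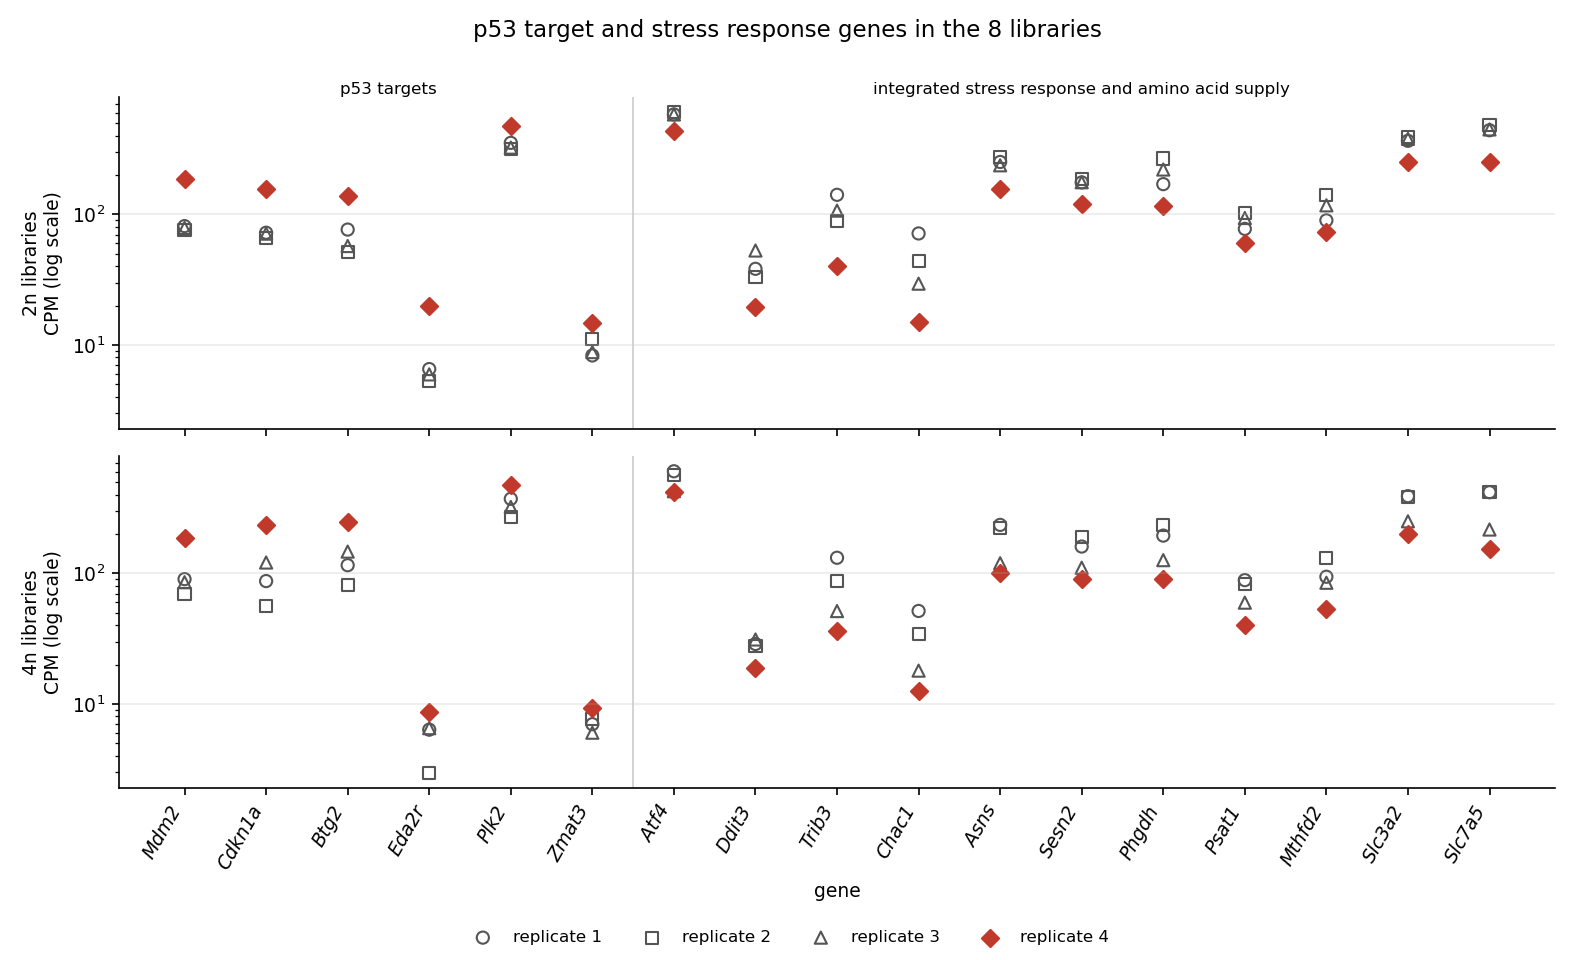
CPM on a log axis of 6 p53 target genes and 11 genes of the integrated stress response and amino acid supply in each library, 2n above and 4n below, with replicate 4 as filled diamonds. The diamond is topmost for the 6 genes on the left and lowest for the 11 on the right, where the 4n library of replicate 3 often lies close to it. Only members outside the range of the others in both fractions are shown, so these positions follow from the choice of genes. In the whole p53 list, 11 of 22 genes kept lay above and 1 below. In the whole stress response list, 15 of 31 lay below and 1 above.

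Hypoxia targets mostly had positive differences in replicate 4, and few lay above the range of the other cultures. Of 37 kept, 30 had a positive and 2 a negative difference in both fractions. Over all 12983 genes kept, 4536 were positive and 4273 negative in both. On the higher side 2 targets were apart, Angptl4 and Car9, where 2.38% of all genes were. In both fractions 3 lay above the others, where 10.4% of all genes did. Angptl4, an inhibitor of lipoprotein lipase, stood at 6.77, 2.21 and 2.60 CPM against 16.5 CPM in 2n, and at 5.53, 2.60 and 2.65 CPM against 20.3 CPM in 4n. Car9, a carbonic anhydrase, stood at 37.1, 7.59 and 14.4 CPM against 53.1 CPM in 2n, and at 47.4, 5.58 and 13.4 CPM against 58.2 CPM in 4n. Replicate 2 was lowest in both fractions for 32 of the 37 genes, and the median log2 difference of 0.52 was -0.05 without replicate 2. Without replicate 1 the median was 0.92 and 6 hypoxia targets were apart. Vegfa and Slc2a1, which encode a growth factor for vessels and a glucose transporter, were highest in replicate 1, with replicate 4 inside the range of the others in both fractions.

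Immediate early genes, which respond to stimuli within minutes, were above the others in replicate 4 for 14 of 31 genes kept, with 5 apart (Fosb, Dusp2, Nr4a1, Btg2 and Arc) and a median log2 difference of 0.59. Fosb, an AP-1 subunit, stood at 192, 359 and 271 CPM against 661 CPM in 2n, and at 325, 376 and 268 CPM against 685 CPM in 4n. The 5 members apart were 2 without replicate 3, when Fosb was lost, 3 without replicate 2 and 9 without replicate 1. Fos and Egr1 were above the others with differences of 0.24 and 0.59 for Fos and 0.25 and 0.48 for Egr1. In the list of matrix proteases and the plasminogen system, 2 of 29 genes kept were apart: Plau, the urokinase, and Serpinb2, an inhibitor of it. Serpinb2 stood at 1.34, 1.34 and 2.60 CPM against 11.7 CPM in 2n, and at 1.29, 0.22 and 1.65 CPM against 7.74 CPM in 4n. Mmp2, an abundant gelatinase, was above the others at 2045 CPM in 2n and 1656 CPM in 4n, differences of 0.93 and 1.09. Among heat shock genes 0 of 14 and among TGF-beta targets 0 of 32 were apart, with medians of 0.17 and 0.15, and among NRF2 targets 1 of 24, Ephx1. Glucocorticoid targets had 2 of 13 apart, Mt2A and Angptl4, with a median of 0.35 that was 0.14 without the 4n library of replicate 4 and 0.17 without replicate 2. None of 11 genes of the mitochondrial chromosome was apart, at a median of 0.64 that was 0.06 without replicate 1. Of 8 Schwann cell and neuron markers kept, S100b was apart on the higher and Elavl4 on the lower side, and none of 3 mast cell markers and of 1 erythroid and platelet marker was apart.

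**Figure D5:**
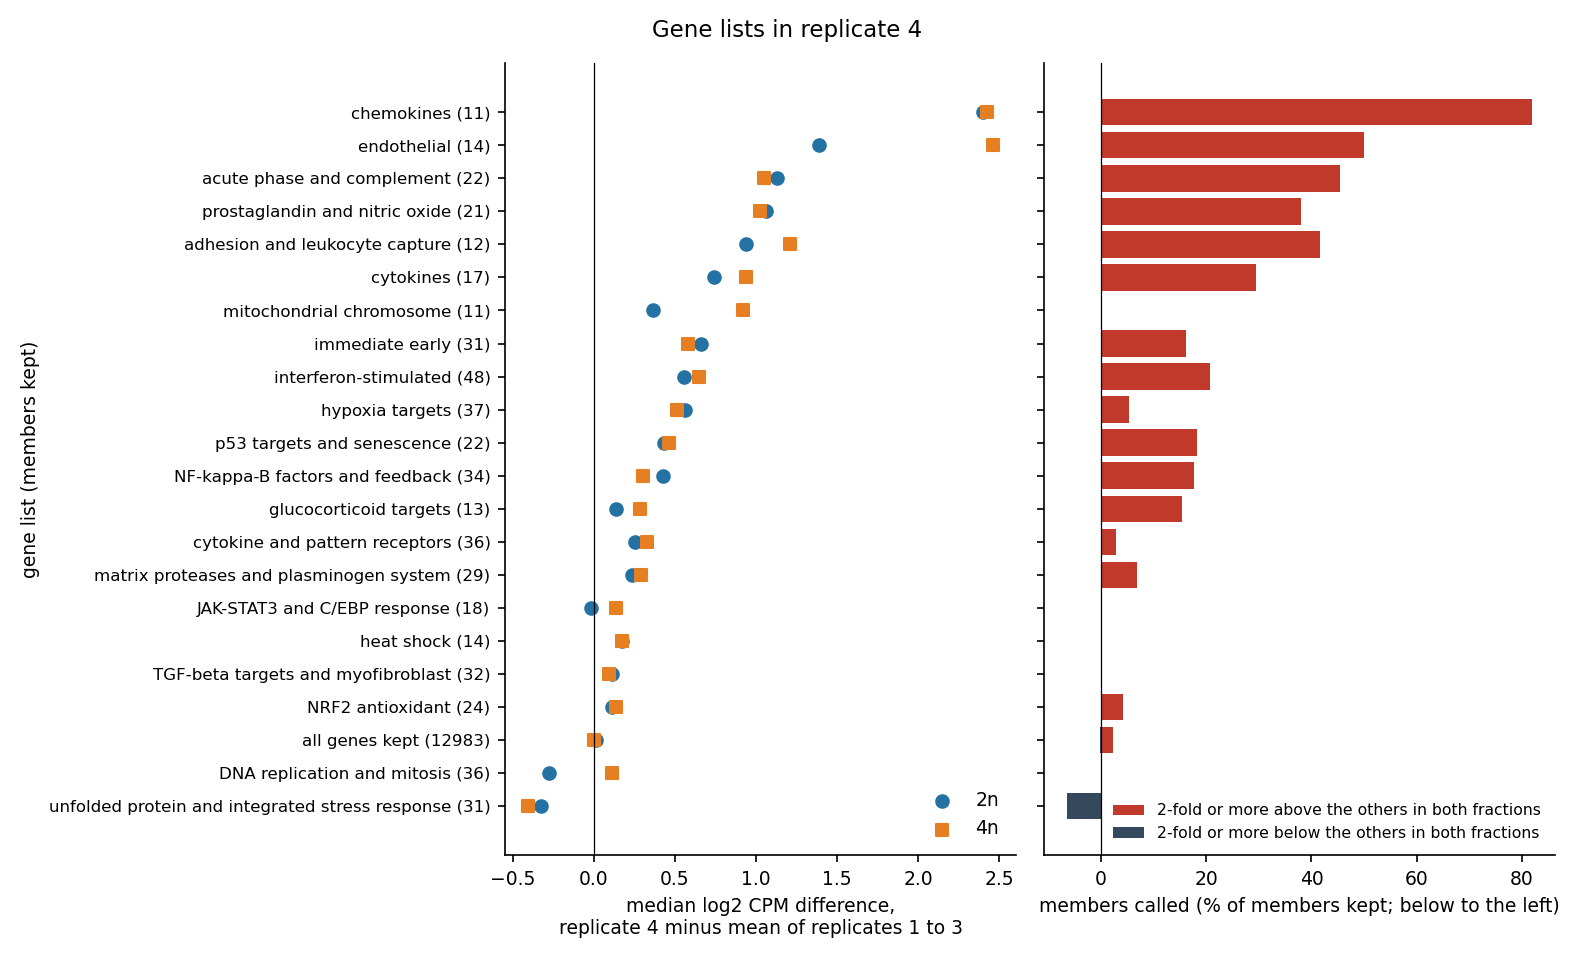
Left, median log2 CPM difference of replicate 4 from the mean of replicates 1 to 3 for 20 gene lists, the endothelial markers and all genes kept, in 2n (circles) and 4n (squares). Right, the share of each list's kept members that were apart in both fractions, as bars from 0, higher to the right and lower to the left. Chemokines lead with 81.8% apart, against 2.38% of all genes kept.

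Of the 18 genes apart on the lower side, 3 were members of a list: Trib3, Chac1 and the neuronal marker Elavl4. Ptn, the growth factor pleiotrophin, stood at 85.7, 235 and 243 CPM against 50.3 CPM in 2n, and at 75.1, 235 and 115 CPM against 47.0 CPM in 4n. Sema3d, a secreted guidance factor, stood at 28.9, 41.2 and 85.2 CPM against 18.1 CPM in 2n, and at 30.9, 29.5 and 35.9 CPM against 10.01 CPM in 4n. Irs1, the adaptor of the insulin receptor, stood at 67.0, 48.5 and 56.8 CPM against 26.8 CPM in 2n, and at 51.4, 39.8 and 38.1 CPM against 20.2 CPM in 4n. For Irs1 replicates 1 to 3 lay close together, while for Ptn replicate 1 was near replicate 4. Cdh3, the placental cadherin, Capn6, a calpain without protease activity, and Ciart, a repressor of the circadian clock, followed with log2 differences between -1.02 and -1.24. None of the 8 genes named as lower (Ptn, Sema3d, Chac1, Trib3, Cdh3, Irs1, Capn6 and Ciart) was apart under every left-out culture, each losing the call without replicate 1, 2 or 3.

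The contrast between fractions, which did not enter the choice of replicate 4, was tested for the inflammatory genes over all 8 libraries. Of the 105 genes, 4 rose in 4n (Pla2g5, Ptgds, Ptgfr and Cd59) and 1, C7, fell, by edgeR's quasi-likelihood test with Benjamini-Hochberg adjustment over all genes kept, where 2.67% of genes rose and 0.0077% fell. With the replicate number as a block, 5 rose and 3 fell (C1s, C7 and Cp), where 4.27% of all genes rose and 0.608% fell. Cell type markers differed between the fractions: in the fit without the block all 16 cardiomyocyte markers kept rose in 4n (15 with it), with a median log2 difference of 4.36. The median was 2.02 over 14 endothelial markers, of which 1 rose, and -0.45 over 13 fibroblast markers, of which 0 rose or fell. Their part in the calls was not tested. C7 fell by 0.95 on the log2 scale, in 4 of 4 replicates (standard error 0.19, edgeR adjusted p = 0.0345). Pla2g5, a secreted phospholipase, rose by 4.38, in 4 of 4 replicates (standard error 0.79, edgeR adjusted p = 0.0271). Without any 1 of the 4 libraries of 2n, or without the 4n library of replicate 4, edgeR called 0 genes in either direction, with 6 to 14 genes higher and 3 to 13 lower at an unadjusted p under 0.05. Without the 4n library of replicate 3 it called 3 higher and 0 lower. Neither gene was apart in replicate 4. The genes that lead replicate 4 did not pass in the fit without the block. Il6 differed by 0.34 between fractions (standard error 1.30, edgeR adjusted p = 0.918) and Ccl2 by -0.35 (standard error 0.80, edgeR adjusted p = 0.858). In that fit their high replicate 4 levels count as spread within each fraction and widen the standard errors. Not passing there therefore says little about these genes. Il6 was higher in 4n in 2 of 4 replicates and Ccl2 lower in 4 of 4. With the block, Il6 differed by 0.08 (adjusted p = 0.832 by edgeR) and Ccl2 by -0.33 (adjusted p = 0.102 by edgeR).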

How the data were processed

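Messenger RNA of sorted cells was sequenced in 8 libraries, and the groups and replicate numbers are those of the sample titles. The deposited table covers 30957 Ensembl rat genes with symbols and coordinates, and holds whole-number counts beside FPKM values for each library, per the file headers. Reads were aligned with HISAT2 2.0.4 to Rnor_6.0, a Rattus norvegicus build, per the submitters' processing notes, although the labels name the organism Rattus rattus. How reads were counted, with or without strand, is not stated here. The FPKM values deposited by the authors served only to compare genes and as an alternative.

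Genes were kept by filterByExpr of edgeR 4.0.16 (R 4.3.3), grouped by fraction, so a gene had to be present in as many libraries as a fraction holds, which is 4. Replicate 4 alone could not carry a gene through, but it could supply 2 of these libraries. Genes high in replicate 4 therefore passed more easily, and counts and medians over the kept members of a list share this limit. CPM values use TMM library sizes and log2 CPM a prior count of 2. In the smallest library 1 CPM is 14.8 counts before scaling, and the lowest values carry the largest counting error. The mean over the fractions of the replicate 4 difference is the value of a gene, and folds are 2 to the power of a log2 difference. The 4n against 2n test was edgeR's quasi-likelihood test, robust, two-sided, adjusted over all genes at a threshold of 0.05. DESeq2 1.42.0 was an alternative, as were other scalings, prior counts, filters and thresholds, and each library left out.

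Each replicate number occurs in both fractions, and the description of a 2n library opens with the code that its 4n partner has. Deviations from the group means correlated at 0.429, 0.585, 0.268 and 0.648 within replicates 1 to 4 and at no more than 0.109 between other pairs. The number was therefore taken to pair the libraries. The main 4n against 2n test did not use this pairing, and only the alternative fit had the replicate number as a block. The replicates are called independent experiments in the labels. The p-values set a difference against the spread between these libraries, which in the main test includes differences between the replicates.

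The members, the 20 gene lists, the 11 marker lists and the tests were chosen with earlier results of these data known. Named genes are Il6 and Ccl2, the 10 genes per direction with the largest difference in the weaker fraction at 5 CPM or more, up to 6 genes apart per list at 1 CPM or more, and 35 set genes, and markers are described beside them. Of the genes that this rule selects, the text gives those that describe a list. Genes listed at 0 in all libraries include Col1a2, so a 0 can stem from how reads were counted. Near-identical genes may share reads. The values of 1 listed gene are left out.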

Additional observations from a re-analysis of the deposited data

Results flagged for a closer look

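In groups of 4 libraries, 1 library stood farther from the rest than Dixon's 95% critical value allows for 17 of 158 gene groups and 7 of 62 groups of list sums. Chance gives about 1 in 20, and the genes had been named because replicate 4 differed, so the flags add no evidence. The values are the gap to the nearest library divided by the range of the group.

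In 2n, replicate 4 was the highest library by this measure for Cxcl2 (0.864), Il18r1 (0.959), Lbp (0.885), Selp (0.863), Igfbp5 (0.952), Mdm2 (0.917), Cdkn1a (0.888) and Socs3 (0.867). In 4n it was the highest for Pla2g2a (0.866), C3 (0.957), Lbp (0.892), Cdh5 (0.857), Icam2 (0.893), Dusp2 (0.943) and Socs3 (0.939). Lbp and Socs3 were the genes flagged in both fractions. Replicate 4 was the lowest 4n library for Sema3d (0.846). Replicate 1 was the lowest 2n library for Nfkb1 (0.869), at 69.1 CPM beside 80.7 to 82.6 CPM.

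Among summed list levels, replicate 4 was the highest 2n library for acute phase and complement genes (0.866), prostaglandin and nitric oxide genes (0.85) and immediate early genes (0.843), and the lowest for erythroid and platelet markers (0.848), a sum of 1.99 CPM. It was the highest 4n library for lymphocyte markers (0.952), at a sum of 3.00 CPM. Replicate 2 was the lowest 4n library for hypoxia targets (0.913), and replicate 1 for mitochondrial chromosome genes (0.937).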

How the results depend on the processing

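The number of genes apart depends on the rule. The 309 genes higher and 18 lower became 512 higher without a filter, 140 and 8 at a mean of at least 5 CPM, 55 and 0 at a 4-fold threshold, and 1355 and 1239 with no fold threshold. With ploidy as a covariate, edgeR called 113 higher and 2 lower and DESeq2 281 higher and 59 lower. Those fits take the 2 libraries of replicate 4 as separate replicates and test the contrast that chose them, so their counts are no evidence and only show how far the number depends on the rule. Leaving out libraries gave 292 to 626 higher and 15 to 140 lower, the largest counts arising without a replicate 4 library, where 1 fraction alone decides. Of 93 genes apart that are named or listed, 10 lost the call without replicate 1 (among them Cxcl12, Vcam1, Esam, Lcp1, Ifit1 and Ephx1), 12 without replicate 2 (among them Nfkbiz, Btg2, Arc, Msln, S100b and Il33) and 13 without replicate 3 (among them Lif, Cp, Ptgir, Mx1, Nr4a1, Ass1 and Il18r1).

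List medians kept their direction under all settings run, with 3 exceptions: DNA replication and mitosis, whose -0.05 ranged from -0.27 to 0.11 with the 2n or 4n library of replicate 4 alone, the JAK-STAT3 and C/EBP list, whose 0.18 was -0.0157 without the 4n library of replicate 4 (range -0.02 to 0.20), and hypoxia targets, whose 0.52 ranged from -0.05 without replicate 2 to 0.92 without replicate 1. Among named genes, Vegfa, Slc2a1, Cebpb and Cebpd, which were not apart, changed sign when libraries were left out. The chemokine median of 2.41 was 1.32 without a filter and 1.88 at 5 CPM or more. The prostaglandin and nitric oxide median of 1.06 was 0.88 on FPKM values, 0.88 at a prior count of 5 and 0.54 at 5 CPM or more, and the matrix protease median of 0.28 was 0.40 without a filter. Leaving out libraries moved the adhesion list from 0.86 to 1.21, prostaglandin and nitric oxide from 0.80 to 1.23, immediate early genes from 0.43 to 0.75 and endothelial markers from 1.39 to 2.46. The cause was not tested.

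No paired analysis was possible for replicate 4 because the replicate number is itself the contrast. For 4n against 2n, the replicate block moved the inflammatory genes from 4 higher and 1 lower to 5 higher and 3 lower, and leaving out libraries gave 0 to 5 higher and 0 to 1 lower. At an unadjusted p under 0.05, edgeR had 7 higher and 5 lower, and 12 and 20 with the block. Depth limits genes under about 1 CPM, such as Cxcl2, Cxcl3 and Pla2g2a in the other cultures.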
